A study of Mus musculus with 8 samples.

Results

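Mitochondrial complex I was followed here through the nuclear genes whose platform symbol begins with Nduf, then a, b, c, s or v, then a digit. The array held 37 such genes, each with 1 probe set, among 22206 probe sets of which 19572 carried a gene symbol. They fall into 14 Ndufa, 11 Ndufb, 2 Ndufc, 7 Ndufs and 3 Ndufv genes. The pattern leaves out the Ndufaf assembly factors and Ndufab1, the mitochondrial acyl carrier protein, and it takes in 2 genes that are not complex I subunits in present nomenclature: Ndufa4, since assigned to cytochrome c oxidase, and its paralog Ndufa4l2. Ndufb1 and the 7 subunits encoded by mitochondrial DNA were not analysed here.

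Complex I, the NADH:ubiquinone oxidoreductase, is the first and largest enzyme of the respiratory chain. Its peripheral arm takes electrons from NADH onto flavin, passes them along iron-sulfur clusters and hands them to ubiquinone, and its membrane arm uses the energy to pump protons out of the matrix. Core subunits, conserved from bacteria, carry the flavin, the clusters and the pumps, while the many accessory subunits surround them and are needed for assembly and stability. Absorptive enterocytes of the villus are rich in mitochondria, which supply ATP for nutrient uptake.

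The mice were male KKAy, an obese and diabetic strain with the yellow allele of agouti, stated to be 14 weeks old and 30 g. All 8 were kept on a high-fat diet (45% of energy). After 4 weeks on this diet, 4 mice were gavaged daily for 8 weeks with voglibose, an inhibitor of intestinal alpha-glucosidases, at 1 mg/kg. The other 4 were gavaged with water in equal volume (0.05 ml per 10 g). RNA from about 4 cm of whole ileum per mouse was measured on 1 Affymetrix array each, so the groups have no lean, chow-fed or untreated counterpart. The comparison of voglibose with water asks which ileal transcripts differ after treatment. Because each sample was a piece of whole tissue, fewer cells of a type and less RNA per cell cannot be told apart.

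Array medians lay between 5.89 and 5.94 (log2 signal), and correlations between arrays between 0.982 and 0.994. The summed signal of 10 enterocyte markers was nearly the same in all mice, from 21.22 to 21.28 in water and from 21.21 to 21.29 in voglibose mice. Of these markers 4 were lower and 6 higher after voglibose, and 1, Slc15a1, had an unadjusted limma p under 0.05 (0.485 ± 0.18, SE). Other lists leaned one way: all 5 Paneth cell markers and all 5 measured fibroblast markers were lower in voglibose mice, of which only Lum, a stromal proteoglycan, had an unadjusted p under 0.05 (-0.95 ± 0.41, SE). The summed signals overlapped, at 19.48 to 19.76 in water and 19.30 to 19.58 in voglibose mice for Paneth cells and at 15.04 to 16.09 and 14.97 to 15.85 for fibroblasts. Among 8 measured immune markers 7 were higher and 1 lower, 0 at that p. Their sums were 11.15 to 13.02 in water and 11.57 to 12.87 in voglibose mice. The position along the gut was less even. Of 6 distal ileum markers 5 were lower in voglibose mice and 1 higher, 0 at that p. Their sums ran from 16.09 to 18.52 in water and from 15.57 to 16.71 in voglibose mice. Fabp6, the ileal bile acid binding protein, was at 4.01 in water mouse 4 and at 3.54 in voglibose mouse 2, below the array medians, against 8.14 to 17.50 in the other mice, so these 2 arrays went against the label of the tissue for this defining marker. Water mouse 4 and voglibose mouse 2 were also the 2 lowest mice in Slc10a2 (5.69 and 6.12, others 8.13 to 13.52). The same held for Slc51a (13.01 and 12.87, others 13.4 to 15.15) and Pyy (8.44 and 8.5, others 10.97 to 12.16). It did not hold for Slc51b and Fgf15, where voglibose mouse 1 was lowest (15.21 and 4.92). The sum of the 6 distal markers, in which the brightest weigh most, set them apart less: it was lowest in voglibose mouse 2 (15.57). That of water mouse 4 (16.12) lay above water mouse 1 (16.09) and voglibose mouse 1 (15.72). Water mouse 4 and voglibose mouse 2 had the highest sums of 6 proximal markers (16.81 and 17.04, others 13.57 to 16.41). Water mouse 4 also had the lowest sum of 7 smooth muscle markers (14.26, others 15.46 to 17.39), and voglibose mouse 2 alone had bright pancreatic transcripts (summed signal 12.54, others 6.43 to 6.81). The part of these differences in the results below was not tested, and the main counts are given with and without these 2 mice.

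Complex I transcripts had lower signal in voglibose mice than in water mice. These genes were bright: 25 of the 37 lay above the 90th percentile of all probe sets. Their median signal was 12.81, against 5.91 over all probe sets. The shares below were not computed for probe sets as bright as these genes. Of the 37 genes, 32 were lower (86.5%), against 50.9% of all probe sets and 57% of those above the median signal. The median difference was -0.31 on the log2 scale, against -0.01 over all probe sets and -0.04 above the median signal. An unadjusted p under 0.05 (limma, 2-sided) was reached by 14 of the 32 lower genes, 37.8% of the 37, and by 0 higher genes. Over all probe sets 4.44% were lower at that p and 3.08% higher, and above the median signal 7.08% and 2.57%. In 10 genes (27%) the 4 voglibose mice all lay below the 4 water mice, against 2.53% of all probe sets and 3.69% above the median signal. The reverse, 4 voglibose mice all above the water mice, held for 0 of the 37 genes, against 1.82% of all probe sets and 1.48% above the median signal. After correction no gene passed: 0 of the 37 and 0 of all probe sets (0%) had an adjusted p under 0.05 by limma with Benjamini-Hochberg adjustment, with 1671 probe sets at an unadjusted p under 0.05, and an ordinary linear model also called 0. The adjusted p of the 37 genes ran from 0.652 to 0.997, and 0 of the 37 genes differed by more than 2-fold.

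**Figure D1:**
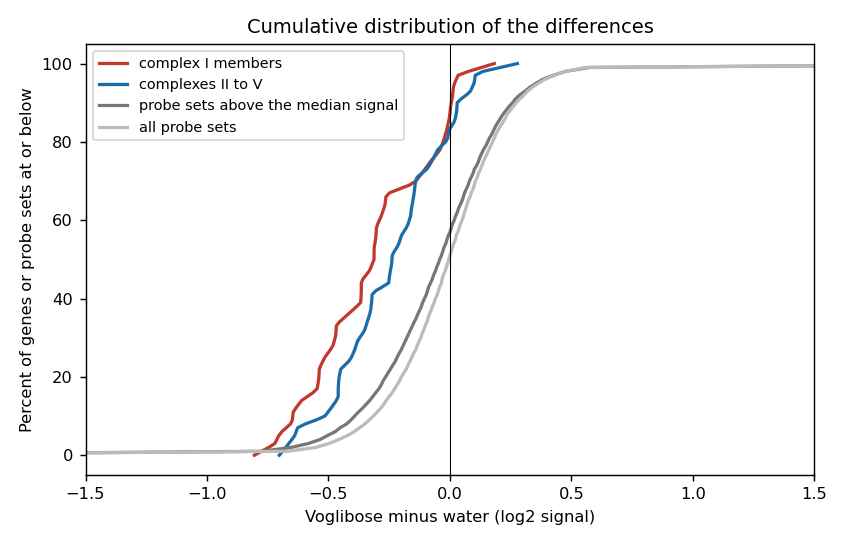
Cumulative distribution of the differences between voglibose and water mice (x axis, log2 signal) as the percent of genes or probe sets at or below each value (y axis), for the 37 complex I genes, the 42 measured genes of complexes II to V, the probe sets above the median signal and all probe sets. The complex I curve crosses 50% at -0.31 and that of all probe sets at -0.01; from 10% to 90% the complex I curve lies to the left, while the curve of all probe sets reaches further out at both ends.

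Of the 14 genes with an unadjusted p under 0.05, 8 kept it without water mouse 4 and 9 without voglibose mouse 1, and the median difference without water mouse 4 was -0.19. In those fits 3.63% and 2.43% of all probe sets were lower at that p. Without water mouse 4 and voglibose mouse 2 together, 30 genes were lower, 11 had an unadjusted p under 0.05 (2.78% of all probe sets) and the median was -0.24. After a further quantile normalization 29 genes were lower, since Ndufa10, Ndufb8 and Ndufs3 turned to 0.06, 0.05 and 0.04, and 11 had an unadjusted p under 0.05 (3.59% of all probe sets). Ndufb2, Ndufb3, Ndufb4, Ndufb4b, Ndufb11, Ndufc2, Ndufa2 and Ndufa4 kept an unadjusted p under 0.05 in all 18 fits.

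The Ndufb genes encode accessory subunits of the membrane arm, most of them around its distal proton pumps. Of the 11, 10 were lower, 6 at an unadjusted p under 0.05, and the median difference was -0.47, the most negative of the 5 classes. Beside this and the other class counts below stand 50.9% of all probe sets lower and 4.44% lower at that p. Above the median signal these shares were 57% and 7.08%. Whether the classes differ from each other was not tested. Ndufb2 had the smallest p of the 37 genes. Its signals were 13.02, 13.01, 13.34 and 13.61 in water mice 1 to 4 and 12.04, 12.30, 12.73 and 12.69 in voglibose mice 1 to 4. The groups did not overlap, and voglibose mice 1 and 2 were lowest. The means were 13.25 ± 0.29 and 12.44 ± 0.33 (SD, n = 4), a difference of -0.81 ± 0.20 (SE; 95% interval -1.25 to -0.36), which is 1.75-fold on the linear scale (limma unadjusted p = 0.0020, adjusted p = 0.652; exact 2-sided permutation p = 0.0286, the smallest that 8 mice allow).

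Ndufb4, a further distal subunit, was at 15.19, 14.99, 15.25 and 15.56 in water mice and at 14.28, 14.65, 14.79 and 14.69 in voglibose mice. Again each voglibose mouse lay below each water mouse, with voglibose mouse 1 lowest and water mouse 4 highest. The difference was -0.65 ± 0.17 (SE; 95% interval -1.02 to -0.27). Ndufb4b is a near copy of this gene on another chromosome. It was at 15.17, 15.32, 15.41 and 15.55 in water and at 14.12, 14.55, 14.97 and 14.92 in voglibose mice, a difference of -0.72 ± 0.20. How far the probe sets of these 2 genes measure the same transcript was not tested, so they may not be separate evidence. Both are nevertheless counted in the totals over all complex I genes and in the Ndufb class. Without Ndufb4b 13 genes had an unadjusted p under 0.05 and the median difference was -0.31.

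The start regions of these genes show what the copy shares with its parent. Each line below is the RefSeq window (GRCm38.p6) from 250 bases before to 50 after the gene start, written 5′ to 3′ on the gene's strand. They are Ndufb2 at chr6:39592315-39592614 (plus strand), Ndufc2 at chr7:97399753-97400052 (plus), Ndufb4 at chr16:37654319-37654618 (minus) and Ndufb4b at chr19:25032858-25033157 (plus). These are the 3 genes with the smallest p and the copy. In the first 3, capitals mark matches to the motifs described at the end. In Ndufb4b they mark the longest run that it shares with the Ndufb4 window.
Ndufb2: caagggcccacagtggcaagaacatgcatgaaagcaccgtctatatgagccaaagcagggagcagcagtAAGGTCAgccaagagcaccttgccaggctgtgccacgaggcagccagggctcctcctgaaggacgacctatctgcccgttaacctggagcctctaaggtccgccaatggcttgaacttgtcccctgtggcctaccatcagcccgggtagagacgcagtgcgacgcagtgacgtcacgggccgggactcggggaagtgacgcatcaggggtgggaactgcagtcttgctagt
Ndufc2: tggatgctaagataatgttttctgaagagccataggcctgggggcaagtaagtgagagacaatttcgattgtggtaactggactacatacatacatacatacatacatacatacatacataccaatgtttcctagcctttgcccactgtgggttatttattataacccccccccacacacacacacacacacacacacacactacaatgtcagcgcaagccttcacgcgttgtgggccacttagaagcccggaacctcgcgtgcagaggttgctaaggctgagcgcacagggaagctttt
Ndufb4: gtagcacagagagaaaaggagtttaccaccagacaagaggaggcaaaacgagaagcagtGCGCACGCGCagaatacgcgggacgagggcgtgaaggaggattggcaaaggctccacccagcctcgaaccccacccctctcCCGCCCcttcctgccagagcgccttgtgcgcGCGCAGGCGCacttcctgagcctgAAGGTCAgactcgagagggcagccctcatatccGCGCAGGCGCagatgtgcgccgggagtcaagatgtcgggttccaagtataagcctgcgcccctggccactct
Ndufb4b: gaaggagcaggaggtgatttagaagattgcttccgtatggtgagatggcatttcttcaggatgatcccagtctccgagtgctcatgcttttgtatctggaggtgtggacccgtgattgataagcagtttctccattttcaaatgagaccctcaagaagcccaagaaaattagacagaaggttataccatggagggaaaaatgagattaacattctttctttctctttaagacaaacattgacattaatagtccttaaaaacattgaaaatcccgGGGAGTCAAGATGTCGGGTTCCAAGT
The shared run is at least 26 bases long, since it ends with the last base of the Ndufb4b window. It covers positions 250 to 275 of the Ndufb4 window, where the gene starts, and positions 275 to 300 of the Ndufb4b window.

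Ndufb3 and Ndufb11, small membrane subunits (Ndufb11 is X-linked), also did not overlap between the groups. Ndufb3 was at 11.29, 11.19, 11.20 and 11.78 in water mice and at 10.48, 10.86, 10.99 and 10.94 in voglibose mice, a difference of -0.55 ± 0.18 (SE). The mean of Ndufb11 was 10.89 ± 0.17 (SD, n = 4) in the water group and 10.28 ± 0.42 in the voglibose group, which differ by -0.61 ± 0.20, and Ndufb5 one of -0.47 ± 0.17. For all 3 genes voglibose mouse 1 was lowest and water mouse 4 highest. Ndufb6 and Ndufb7 differed by -0.37 ± 0.24 and -0.42 ± 0.25, with overlapping groups, and by -0.18 and -0.15 without voglibose mouse 1. Ndufb6 gave -0.24 without water mouse 4. In Ndufb7, which carries twin cysteine motifs, voglibose mouse 1 was at 8.28 and the other 3 voglibose mice at 9.12 to 9.51, within or near the water range of 9.28 to 9.71. Ndufb9, a member of the LYR protein family, Ndufb8 and Ndufb10 showed little difference, at -0.11 ± 0.15, -0.03 ± 0.18 and 0.01 ± 0.22. For Ndufb9 the value was -0.02 without water mouse 4, -0.06 without voglibose mouse 1 and -0.17 without water mouse 2. Ndufb10 was at 8.39, 7.97, 8.49 and 9.02 in water and at 8.25, 8.84, 8.55 and 8.27 in voglibose mice, and its interval, from -0.48 to 0.50, leaves room for a difference as large as that of Ndufb5 in either direction.

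**Figure D2:**
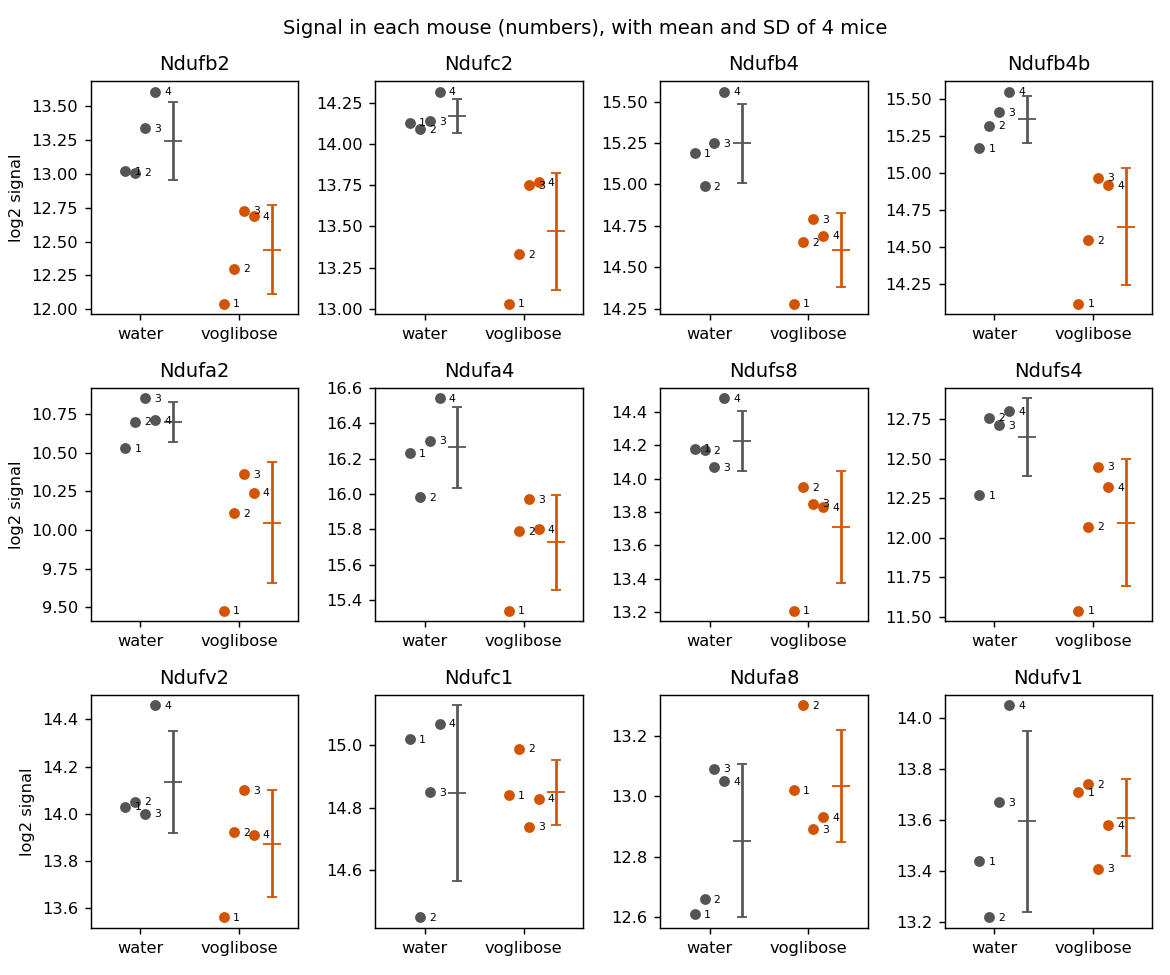
Log2 signal (y axis) of 12 complex I genes in each mouse (points, numbered 1 to 4 within each group), with the mean and SD of the 4 water and 4 voglibose mice beside them; each panel has its own y range. In Ndufb2, Ndufc2, Ndufb4, Ndufb4b, Ndufa2, Ndufa4 and Ndufs8 every voglibose mouse lies below every water mouse, and in the other 5 panels the groups overlap.

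The 2 Ndufc genes, whose products sit beside the proximal pump in the membrane arm, gave unlike values. Ndufc2 was at 14.13, 14.09, 14.14 and 14.32 in water mice and at 13.03, 13.33, 13.75 and 13.77 in voglibose mice. The water mice lay close together, and all voglibose mice lay below them, with voglibose mouse 1 lowest. The difference was -0.70 ± 0.18 (SE; 95% interval -1.10 to -0.30; limma unadjusted p = 0.0027, adjusted p = 0.652). Ndufc1 was at 15.02, 14.45, 14.85 and 15.07 in water mice and at 14.84, 14.99, 14.74 and 14.83 in voglibose mice, and its means were equal to the second decimal (14.85; 95% interval of the difference -0.36 to 0.36). The difference between the 2 genes was not tested.

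Among the 14 Ndufa genes, accessory subunits spread over both arms, 13 were lower and 5 had an unadjusted p under 0.05, with a median difference of -0.31. Ndufa2, a thioredoxin-fold subunit of the NADH-oxidizing tip, came first. It was at 10.53, 10.70, 10.85 and 10.71 in water mice and at 9.48, 10.11, 10.36 and 10.24 in voglibose mice. The groups did not overlap, and the difference was -0.65 ± 0.19 (SE; 95% interval -1.08 to -0.22). Ndufa4, the cytochrome c oxidase subunit that kept its complex I name, was at 16.23, 15.98, 16.30 and 16.54 in water and at 15.34, 15.79, 15.97 and 15.80 in voglibose mice. The groups did not overlap but nearly met, at voglibose mouse 3 and water mouse 2, and the difference was -0.54 ± 0.18.

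Ndufa11, a membrane subunit at the contact with complex III, was at 12.53, 12.65, 12.79 and 13.13 in water mice and at 11.82, 12.66, 12.24 and 12.45 in voglibose mice, with overlap through voglibose mouse 2. Ndufa5, a subunit of the ubiquinone-reducing module, was at 12.93, 12.93, 13.07 and 13.40 in water and at 12.16, 12.48, 12.79 and 13.03 in voglibose mice, with overlap through voglibose mouse 4. Their differences were -0.48 ± 0.20 and -0.47 ± 0.20 (SE), and that of Ndufa6, an LYR protein that binds the acyl carrier protein, was -0.37 ± 0.16. Without water mouse 4 only 2 Ndufa genes kept an unadjusted p under 0.05, Ndufa2 and Ndufa4, and the class median was -0.20. The same count of 2 held without water mouse 3, without voglibose mouse 1 and after a further quantile normalization. Of all probe sets 2.43% to 3.63% were lower at that p in these fits. Ndufa7, Ndufa9, Ndufa1, Ndufa13 and Ndufa3 lay between -0.33 and -0.27, with intervals that span 0. Single mice carried much of some of these values: Ndufa1 differed by -0.07 without water mouse 4, Ndufa7 by -0.21 without voglibose mouse 2 and Ndufa13 by -0.19 without voglibose mouse 1. Ndufa1, an X-linked membrane subunit, stood out for 1 mouse: water mouse 4 was at 12.36 and the other 7 mice at 11.20 to 11.55.

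Ndufa12, Ndufa10 and Ndufa4l2 differed by -0.08 ± 0.16, -0.0025 ± 0.19 and -0.01 ± 0.17 (SE). Ndufa4l2, known as a gene induced by low oxygen, ran from 2.74 to 3.33 in all mice, under the lower quartile of every array (4.05 to 4.18), near the low end of the signals. Ndufa8, a twin cysteine subunit of the proximal membrane arm, was the only one of the 37 genes with higher signal in voglibose mice in all 18 fits. It was at 12.61, 12.66, 13.09 and 13.05 in water and at 13.02, 13.30, 12.89 and 12.93 in voglibose mice, with overlap. Its difference was 0.18 ± 0.17 (95% interval -0.18 to 0.55), or 0.09 without voglibose mouse 2, 0.10 without water mouse 1 and 0.12 without water mouse 2.

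**Figure D3:**
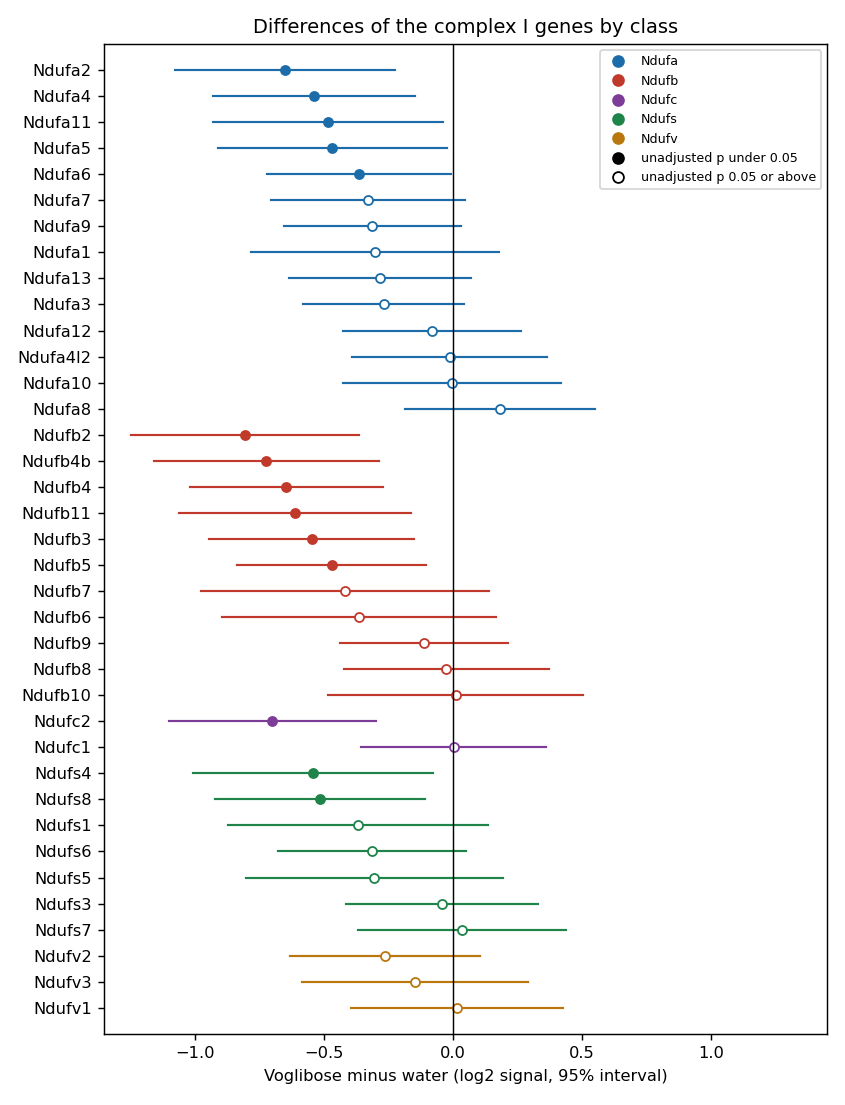
Difference between voglibose and water mice (x axis, log2 signal) for each of the 37 genes, with 95% intervals from limma, ordered by class and size; filled points have an unadjusted p under 0.05. The filled points are 5 Ndufa, 6 Ndufb, 1 Ndufc and 2 Ndufs genes, all below 0, and no gene passed the adjusted threshold.

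The Ndufs and Ndufv classes hold the nuclear core subunits. Of the 6 analysed, 4 were lower, 1 at an unadjusted p under 0.05, with a median difference of -0.15. Of the 28 accessory subunits, 25 were lower, 11 at an unadjusted p under 0.05, with a median of -0.32. The shares lower at that p were 16.7% of the core and 39.3% of the accessory subunits, against 4.44% of all probe sets. The 2 kinds were not tested against each other, and the core median was -0.04 without water mouse 4, where the accessory median was -0.23. The accessory count of 11 became 6 without water mouse 4 or without voglibose mouse 1 and 7 without water mouse 3, and the core count of 1 became 0 without water mouse 4. Ndufs8, which carries iron-sulfur clusters on the path to ubiquinone, was the core subunit with the smallest p. It was at 14.18, 14.17, 14.07 and 14.48 in water and at 13.21, 13.95, 13.85 and 13.83 in voglibose mice. The groups did not overlap, and voglibose mouse 1 lay well below the other 3. The difference was -0.52 ± 0.18 (SE; 95% interval -0.92 to -0.11).

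The other core subunits had overlapping groups. Ndufs1, the largest subunit, with several iron-sulfur clusters, was at 12.89, 12.65, 12.81 and 13.61 in water and at 12.23, 12.87, 12.51 and 12.88 in voglibose mice. Its difference of -0.37 ± 0.23 shrank to -0.16 without water mouse 4 and to -0.24 without voglibose mouse 1. Ndufv2, an iron-sulfur subunit next to the flavin, was at 14.03, 14.05, 14.00 and 14.46 in water and at 13.56, 13.92, 14.10 and 13.91 in voglibose mice, a difference of -0.26 ± 0.17. Leaving out water mouse 4 or voglibose mouse 1 gave -0.15 and -0.16.

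Ndufv1, which binds NADH and the flavin, was at 13.44, 13.22, 13.67 and 14.05 in water and at 13.71, 13.74, 13.41 and 13.58 in voglibose mice (difference 0.02 ± 0.19, SE). Ndufs3 was at 13.70, 13.60, 13.86 and 14.17 in water and at 13.81, 14.06, 13.60 and 13.69 in voglibose mice (-0.04 ± 0.17). Ndufs7, which holds the last cluster before ubiquinone, was at 12.63, 12.38, 12.76 and 12.84 in water and at 12.52, 13.15, 12.44 and 12.64 in voglibose mice (0.04 ± 0.18). Among these 3 subunits voglibose mouse 2 was highest of its group each time. Their 95% intervals reached from -0.41 to 0.44, so a difference of the size of that in Ndufs8 lies outside them, while one of the size of the median of the 37 genes does not.

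The accessory members of these classes varied too. Ndufs4, an assembly-critical subunit of the NADH-oxidizing tip whose loss causes Leigh-like disease in mice, was at 12.27, 12.76, 12.71 and 12.80 in water and at 11.54, 12.07, 12.45 and 12.32 in voglibose mice. Only water mouse 1 fell within the voglibose range. The difference was -0.54 ± 0.21 (SE) and -0.36 without voglibose mouse 1. Ndufs6, a zinc-binding subunit, was at 12.24, 12.04, 12.07 and 12.63 in water and at 11.93, 11.88, 12.13 and 11.79 in voglibose mice, a difference of -0.31 ± 0.17, or -0.18 without water mouse 4. Ndufs5 differed by -0.31 ± 0.23, or -0.05 without water mouse 4, with water mouse 4 at 11.16 and the other 7 mice at 10.01 to 10.29. Ndufv3 was at 6.84, 7.14, 6.89 and 7.29 in water and at 6.64, 6.51, 7.13 and 7.29 in voglibose mice. Its difference of -0.15 ± 0.20 ran from -0.02 without voglibose mouse 2 to -0.28 without voglibose mouse 4, and turned to 0.06 when water mouse 4 and voglibose mouse 2 were both left out. As classes, the 7 Ndufs genes had a median of -0.31 (6 lower, 2 at an unadjusted p under 0.05), which without water mouse 4 was -0.16, with 0 genes at that p. Leaving out voglibose mouse 1, water mouse 2 or water mouse 3 left 1 Ndufs gene at that p. Of all probe sets 2.43% to 4.62% were lower at that p in these fits. The 3 Ndufv genes had a median of -0.15 (2 lower, 0 at that p), and their median moved with each voglibose mouse left out, from -0.03 without mouse 2 to -0.28 without mouse 4.

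Sorted by the assembly modules of the enzyme instead of by name, the genes gave a similar spread. In the NADH-oxidizing module 9 of 10 genes were lower (median -0.32), in the ubiquinone-reducing module 3 of 4 (-0.26), around the proximal pump 8 of 10 (-0.29) and around the distal pump 9 of 10 (-0.44). Genes with an unadjusted p under 0.05 numbered 3, 2, 2 and 5 in this order (30%, 50%, 20% and 50%). Over all probe sets 4.44% were lower at that p, and above the median signal 7.08%. Leaving out water mouse 4 moved the first 3 medians to -0.17, -0.15 and -0.13 and the counts to 1, 0, 1 and 4. They were 1, 1, 1 and 4 without voglibose mouse 1 and 1, 1, 1 and 5 without water mouse 3. The ubiquinone-reducing count was also 1 without voglibose mouse 2, and the proximal pump count 1 without voglibose mouse 3. Of all probe sets 2.43% to 5.26% were lower at that p in these fits. The distal pump genes had a median of -0.26 when voglibose mouse 1 was left out.

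The genes varied together between mice, also within a group. Water mouse 4 had the highest signal of the 8 mice in 32 of the 37 genes (shared with voglibose mouse 4 in Ndufv3), and voglibose mouse 1 the lowest in 23. Averaged over the 37 genes as deviations from each gene's mean of 8 mice, water mice 1 to 4 were at 0.05, -0.02, 0.14 and 0.46 and voglibose mice 1 to 4 at -0.42, -0.07, -0.09 and -0.06. The voglibose mice all lay below the water mice, but water mouse 2 lay close to the 3 upper voglibose mice. The Ndufb class had the widest range, from 0.53 in water mouse 4 to -0.59 in voglibose mouse 1, and the Ndufv class a range from 0.41 to -0.22 in the same mice. The marker sums of voglibose mouse 1 were 21.29 for enterocytes, 15.62 for smooth muscle and 16.41 for the proximal list, near or within the ranges of the other voglibose mice (21.21 to 21.29, 15.46 to 16.53 and 15.52 to 17.04). Its sums of Paneth cell markers (19.30, others 19.46 to 19.76) and fibroblast markers (14.97, others 15.04 to 16.09) were the lowest of the 8 mice, and their part in its low complex I signal was not tested.

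**Figure D4:**
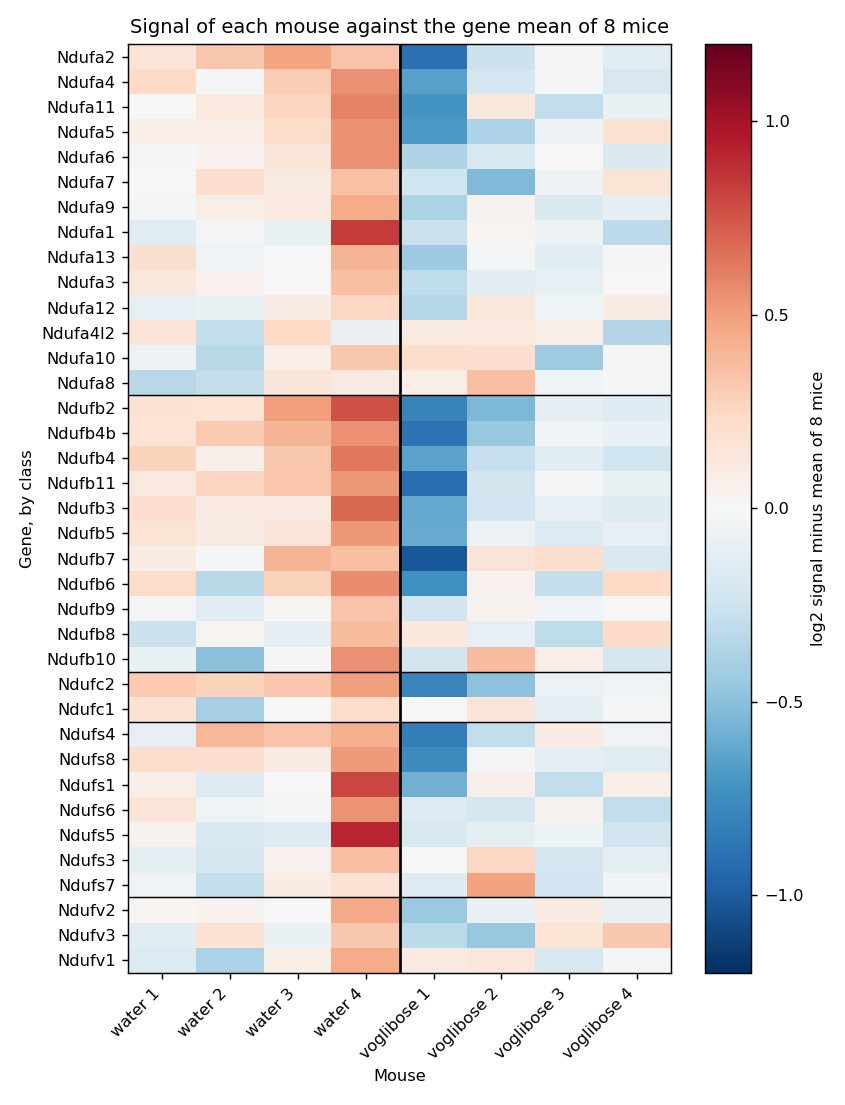
Log2 signal of each mouse minus the gene's mean over 8 mice (colour, red above and blue below) for the 37 genes (rows, by class) in the 4 water and 4 voglibose mice (columns). Water mouse 4 is the highest mouse in 32 rows and voglibose mouse 1 the lowest in 23.

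**Figure D5:**
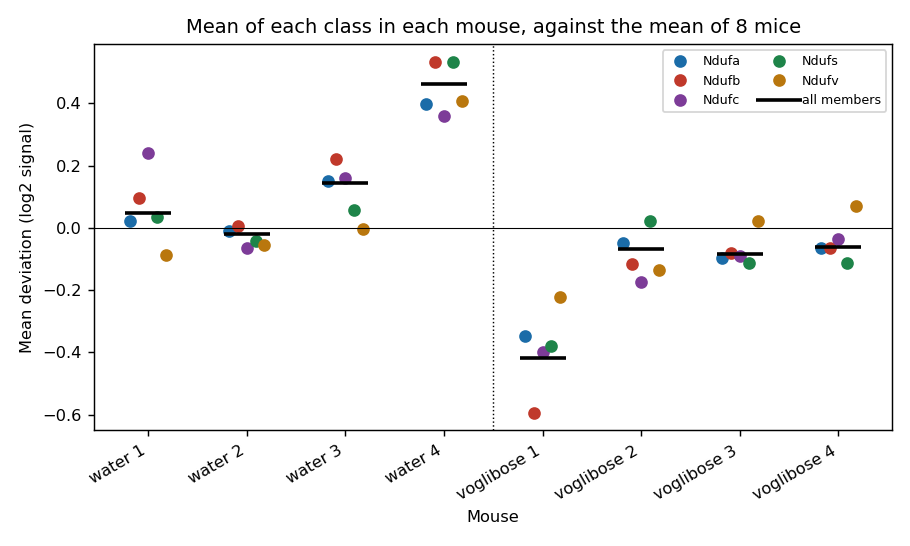
Mean deviation from the 8-mouse mean (y axis, log2 signal) of each class (coloured points) and of all 37 genes (black bars) in each mouse (x axis). Water mouse 4 stands at 0.46 and voglibose mouse 1 at -0.42, with the other 6 mice between -0.09 and 0.14.

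The other respiratory complexes, in which the electrons from complex I travel on, were measured in the same mice. Of 42 genes of complexes II to V, 35 were lower (83.3%) and 15 had an unadjusted p under 0.05 (35.7%), with a median difference of -0.24. The shares over all probe sets were 50.9% lower and 4.44% lower at that p, and above the median signal 57% and 7.08%. In 14 of the 42 genes (33.3%) the 4 voglibose mice all lay below the 4 water mice, against 10 of the 37 (27%). This held for 2.53% of all probe sets and 3.69% of those above the median signal. The complex I values, 32 of 37 lower, 14 at that p, 10 without overlap and -0.31, were not tested against those of the 42 genes. Complex II had 3 of 4 lower and 0 at that p, complex III 8 of 9 and 4, complex IV 10 of 12 and 5, and complex V 14 of 17 and 6. The genes with the smallest p in their complexes included Atp5md and Atp5l of the ATP synthase (-0.64 ± 0.17 and -0.70 ± 0.19, SE), Cox6c of cytochrome c oxidase (-0.52 ± 0.15) and Uqcr10 of the cytochrome bc1 complex (-0.67 ± 0.24). The mean deviation of these genes was highest in water mouse 4 (0.39) and lowest in voglibose mouse 1 (-0.29), the same mice as for complex I. Without water mouse 4 the counts of complexes III and IV were 0 and 2, complex II had 1 of 4 lower (median 0.06), and without voglibose mouse 1 complexes III and IV had 0 and 1. Without voglibose mouse 3 complexes III and IV had 2 and 3, without voglibose mouse 2 complex III had 2, and without voglibose mouse 4 complex IV had 3. Over all 42 genes, without water mouse 4 the count at an unadjusted p under 0.05 was 8 and the median -0.14, and without voglibose mouse 1 the count was 5. Of all probe sets 3.63% and 2.43% were lower at that p in these 2 fits.

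The assembly factors build complex I and are no part of the finished enzyme. Of 17, 15 were lower (88.2%), 2 of them at an unadjusted p under 0.05 (11.8%). Their median difference was -0.16 (-0.09 without water mouse 4 and voglibose mouse 2). Beside these stand 50.9% of all probe sets lower and 4.44% lower at that p, and above the median signal 57% and 7.08%. Ndufaf3 averaged 8.09 ± 0.22 (SD, n = 4) with water and 7.58 ± 0.15 with voglibose, without overlap, and Ndufaf8 and Nubpl, which inserts iron-sulfur clusters, differed by -0.53 ± 0.23 and -0.39 ± 0.18 (SE). Of 14 genes of the mitochondrial matrix, import machinery and outer membrane, a rough index of mitochondrial content, 8 were lower, 5 higher and 1 equal (Vdac2), and 0 had an unadjusted p under 0.05. The smallest p belonged to Timm23 (-0.37 ± 0.17, SE, without overlap), Vdac3 (-0.32 ± 0.17) and Timm44 (-0.36 ± 0.20), all lower. Dropping water mouse 3, or instead voglibose mouse 4, gave 2 lower genes at an unadjusted p under 0.05. The median of the 14 genes was -0.04. It was 0.02 after a further quantile normalization and -0.085 when voglibose mouse 1 was left out. Among 11 regulators of mitochondrial biogenesis 7 were lower (63.6%), 2 at an unadjusted p under 0.05 (18.2%), with a median of -0.11 (-0.05 after that normalization). These 2 were Pprc1, a coactivator related to PGC-1 (-0.73 ± 0.24, SE, from a mean of 5.19 with water, below the array medians), and Gabpb1, a subunit of the ETS factor GABP (-0.46 ± 0.18). Polrmt had the next smallest p and differed by -0.36 ± 0.17, without overlap, from a mean of 5.65 with water, also below the array medians. Nrf1, which binds many promoters of respiratory genes, differed by 0.28 ± 0.18. Of 6 other enzymes that feed electrons to ubiquinone 3 were lower and 3 higher, with Sqor, the sulfide oxidizer, at -0.63 ± 0.20 and Dhodh, of pyrimidine synthesis, at 0.42 ± 0.17. None of the genes named from these lists passed after adjustment over all probe sets (limma with Benjamini-Hochberg, adjusted p of 0.652 or above).

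The start regions of the complex I genes were searched for letters bound by factors known to act on respiratory genes, on both strands. RefSeq windows were matched for 33 of the 37 genes, and Ndufa2, Ndufa4l2, Ndufb9 and Ndufs1 had none. The YY1 motif AANATGGCG was in 7 of the 33 genes (21.2%) and in 3.79% of 15691 array genes with a window. The NRF1 motif, GCGCA and GCGC with any base between them, was also in 7 (21.2%, against 7.63%), the ESRRA motif AAGGTCA in 3 (9.09%, against 4.57%), the GABPA motif CCGGAAG in 4 (12.1%, against 13.2%) and the SP1 motif GGGCGG in 14 (42.4%, against 51.2%). Array genes have more windows per gene than these genes (19143 windows for 15691 genes, against 35 for 33), which raises their share per gene. Counted per window, the shares in complex I genes and array genes were 20% and 3.23% for YY1, 22.9% and 6.77% for NRF1, 8.57% and 3.93% for ESRRA, 11.4% and 11.8% for GABPA and 42.9% and 47.9% for SP1. Over all 32851 windows, genes outside the array included, GABPA was in 8.86% and SP1 in 35.7%, below their shares in complex I genes. Matches of 2 different motifs overlapped once, those of GABPA and SP1 in Ndufs3. Among the windows printed above, that of Ndufb4 held 3 NRF1 matches, at positions 60, 172 and 229, an AAGGTCA match at 196 and an SP1 match at 141, and that of Ndufb2 an AAGGTCA match at 70. Those of Ndufc2 and Ndufb4b held no match to the 5 motifs. The median difference was -0.37 in genes with an NRF1 match and -0.31 in those without, -0.31 and -0.34 for YY1, -0.39 and -0.31 for GABPA, -0.65 and -0.31 for ESRRA (3 genes with a match) and -0.27 and -0.47 for SP1. These matches are descriptions of letters and were not tested against the expression values.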

How the data were processed

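Per the submitters' processing notes the authors used RMA and the Transcriptome Analysis Console (versions not stated), and they deposited 1 log2 signal per probe set and mouse. The log2 scale was read from the values, which run from 2.09 to 19.55. For the genome build and RMA settings, nothing is given in the sources used here. Such normalization across arrays hides a change in total RNA. The labels give the groups but no batch, and whether the 4 samples of a group came from separate cages is not stated.

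All 22206 probe sets were fitted, unfiltered. Of these, 19572 carried 1 gene symbol, some of them shared between probe sets, and all matched RefSeq gene identifiers (GRCm38.p6), while 2634 carried none. Differences within rounding error of 0 counted as equal. Between any pair of arrays at most 1.27% of values were equal. limma 3.58.1 (R 4.3.3, lmFit and eBayes) compared the groups, 2-sided. Its p-values were adjusted by Benjamini-Hochberg across every probe set, and its moderated SEs and 95% intervals are printed. Exact permutation tests used 70 arrangements. Marker sums are log2 of sums of linear signals. The fit was tested on simulated data with added changes. At an adjusted p under 0.05 it recovered 9.2% of 1.5-fold, 50.4% of 2-fold and 86.4% of 3-fold changes. The absence of adjusted calls therefore does not show that no gene changed. Plots were drawn with matplotlib 3.10.9.

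The members and gene lists were chosen with earlier results of these data known. Full values are given for the genes with the smallest p and the most positive gene of each class and for core subunits, and in other lists for up to 3 genes with the smallest p. Genes named beyond this rule, such as Ndufb5, Ndufb7, Ndufb11, Ndufa1, Ndufs5 and Nrf1, were chosen after their values were seen. A planned summary by protein length was not run. Alternatives covered scaling, filtering, moderation, array weights, probe set averaging, membership, a replicate block and each mouse left out. Leaving out water mouse 4 with voglibose mouse 2, and leaving out Ndufb4b, were added after seeing the data.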

Additional observations from a re-analysis of the deposited data

Results flagged for a closer look

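A mouse that stood apart from the other 3 of its group (Dixon's test at 95%) occurred for 9 of 76 group values examined, 11.8%, where chance gives about 1 in 20; the genes share the same mice. Water mouse 4 was far above the other water mice in Ndufa1 (12.36), Ndufb3 (11.78), Ndufb5 (13.15) and Ndufv2 (14.46). Voglibose mouse 1 was far below the other voglibose mice in Ndufb5 (12.03), in Ndufs8 (13.21) and in the mean deviation over the 37 genes (-0.42, others -0.09 to -0.06). Water mouse 1 was low in Ndufs4 (12.27), and voglibose mouse 4 was low in Ndufa4l2 (2.74), a gene near background.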

How the results depend on the processing

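Under every alternative run, 0 of the 37 genes were called at an adjusted p of 0.05 and their median difference stayed below 0. Leaving out 1 mouse at a time gave 8 to 14 genes at an unadjusted p under 0.05 (8 without water mouse 4, 9 without voglibose mouse 1), 29 to 36 lower genes and medians from -0.38 to -0.19. The genes kept in those 2 fits were all among the 14. In the other alternatives the count ran from 11 to 14 and stayed within 1.5 times the main count. With the replicate number as a block, 13 genes had an unadjusted p under 0.05 and the median was -0.31, so the block changed no adjusted call among the 37, and for complex IV the count was 3 in place of 5. Same-numbered mice deviated with correlations from -0.32 to 0.02, so the numbers were not taken to pair mice. With Ndufab1 added, or without Ndufa4 and Ndufa4l2, 14 and 13 genes had that p. Leaving out water mouse 4 and voglibose mouse 2 together turned the Ndufv median to 0.06. The sign held in every fit for 26 lower genes and 1 higher gene, and 10 genes with differences near 0 changed sign in some fit. The number of arrays limits precision: the median SE of the 37 differences was 0.18, and the 95% intervals of 23 genes span 0.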
